A study of Homo sapiens with 20 samples.

Results

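The regions described here are 1410 of 54563 consensus Cut&Run peaks that were enriched for FRA1 over IgG in 1205Lu melanoma cells and not in A375 melanoma cells. Members were chosen by the raw counts: a peak under 2000 bp entered when all 3 1205Lu FRA1 libraries held 10 reads or more and reached 4 times the IgG count plus 1, and the same rule failed for the 3 A375 FRA1 libraries against A375 IgG. Of 53364 peaks under 2000 bp, 2285 met the rule in both lines, 27898 in A375 only and 21771 in neither line. The Cut&Run counts at these peaks are therefore a description, and only sequence, position and the RNA-seq of nearby genes lie outside the rule. Another 8 peaks of 2000 bp or more met the counts and were left out by width.

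Both lines are established human melanoma lines. Cut&Run was performed in each line with a FRA1 antibody (n = 3) and with IgG (1 library), and RNA-seq in each line after non-targeting siRNA (si-NT, n = 3) or siRNA against FRA1 (si-FRA1, n = 3). No siRNA is given for the Cut&Run samples, and the labels do not say whether replicates came from separate cultures, so p-values measure the spread between these samples. FOSL1, the gene that encodes FRA1, was measured at 423, 436 and 418 CPM (counts scaled to the normalized library total) in A375 si-NT and at 26.8, 26.7 and 27.0 in A375 si-FRA1. The 1205Lu values were 470, 453 and 458 CPM in si-NT samples and 68.5, 69.2 and 63.3 in si-FRA1 samples, and in both lines every silenced sample was below every control. Of the melanocyte lineage markers checked, SOX10 averaged 868 CPM in 1205Lu and 45.1 in A375, S100B 406 and 1.02, and MITF 3.37 and 53.6, while the pigment genes TYR, MLANA, PMEL and DCT were near 0 in both lines.

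FRA1 is a FOS family protein that binds DNA as a dimer with a JUN protein, together called AP-1, and the usual AP-1 site is the palindromic word TGACTCA, which reads TGAGTCA on the other strand. AP-1 acts largely at enhancers away from gene starts, where it is found with factors of the cell's lineage. SOX factors, among them SOX10 of the neural crest and melanocyte lineage, recognise words built on ACAAAG, and forkhead factors recognise words built on TAAACA. In melanoma, high FRA1 levels are known from cells with an invasive, less differentiated state.

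The sequences below are 201 bp windows around peak centres (GRCh38, plus strand), with TGACTCA and ACAAAG on either strand in capitals. A transcript-start peak is one with any annotated transcript start within 3 kb, so the window need not lie on the start. The first group holds 6 members named by the rule that carried the AP-1 word in this window, since these show the site that the antibody's target is known to bind.
Transcript-start peak on chromosome 14, chr14:101001122-101001322: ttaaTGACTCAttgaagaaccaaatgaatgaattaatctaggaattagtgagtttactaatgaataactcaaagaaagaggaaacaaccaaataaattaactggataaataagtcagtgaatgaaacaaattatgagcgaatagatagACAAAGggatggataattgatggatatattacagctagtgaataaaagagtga
Intronic peak, nearest coding gene GAB1, chr4:143411867-143412067: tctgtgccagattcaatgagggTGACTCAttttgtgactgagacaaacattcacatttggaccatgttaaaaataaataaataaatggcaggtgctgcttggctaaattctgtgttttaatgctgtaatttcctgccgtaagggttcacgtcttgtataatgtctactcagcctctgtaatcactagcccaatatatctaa
Intergenic peak, nearest coding gene CNTNAP5, chr2:122961165-122961365: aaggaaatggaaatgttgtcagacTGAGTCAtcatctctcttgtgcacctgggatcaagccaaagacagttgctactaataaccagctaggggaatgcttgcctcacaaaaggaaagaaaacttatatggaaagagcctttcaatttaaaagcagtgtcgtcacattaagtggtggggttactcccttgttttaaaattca
Transcript-start peak, nearest coding gene PFKP, chr10:3107383-3107583: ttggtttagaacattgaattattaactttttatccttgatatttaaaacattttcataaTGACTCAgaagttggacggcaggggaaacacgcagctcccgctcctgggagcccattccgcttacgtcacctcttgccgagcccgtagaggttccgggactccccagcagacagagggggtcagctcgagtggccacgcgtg
Intronic peak, nearest coding gene STK33, chr11:8408503-8408703: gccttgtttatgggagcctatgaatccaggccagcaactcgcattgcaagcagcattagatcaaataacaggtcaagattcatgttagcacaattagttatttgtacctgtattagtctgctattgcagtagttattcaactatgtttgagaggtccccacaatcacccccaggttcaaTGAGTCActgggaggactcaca
Transcript-start peak of TNC, chr9:115109433-115109633: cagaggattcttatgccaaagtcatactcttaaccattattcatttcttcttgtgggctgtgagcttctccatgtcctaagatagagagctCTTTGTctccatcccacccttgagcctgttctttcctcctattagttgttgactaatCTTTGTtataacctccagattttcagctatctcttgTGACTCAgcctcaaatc

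A member without either word in this window is shown for contrast, because it had the highest enrichment of all and because most members lack the AP-1 word there. The whole peak, which is wider than the window, holds 1 copy of the AP-1 word.
Transcript-start peak, nearest coding gene FAN1, chr15:30922793-30922993: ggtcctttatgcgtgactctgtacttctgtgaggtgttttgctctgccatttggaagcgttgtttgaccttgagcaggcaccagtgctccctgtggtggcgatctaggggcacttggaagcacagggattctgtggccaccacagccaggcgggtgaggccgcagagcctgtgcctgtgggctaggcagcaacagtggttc

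At these 1410 peaks the 1205Lu FRA1 libraries held a median of 25, 48 and 41 reads, with interquartile ranges of 17 to 41, 30 to 80.75 and 26 to 67. The A375 FRA1 libraries held medians of 6, 8 and 8 reads there, although they held more counts over all consensus peaks. IgG held a median of 3 reads in 1205Lu and 4 in A375. Counts in all consensus peaks came to 583750, 897407 and 781542 in the 1205Lu FRA1 libraries and to 3354095, 5316527 and 4256577 in those of A375, with 314569 and 383994 in IgG. These totals cover reads in peaks only, so they do not separate sequencing depth from enrichment. The members took 7.98, 10.1 and 9.64% of the 1205Lu FRA1 counts and 0.422, 0.395 and 0.431% of the A375 FRA1 counts. They took 1.83% and 1.8% of the IgG counts of 1205Lu and A375.

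**Figure D1:**
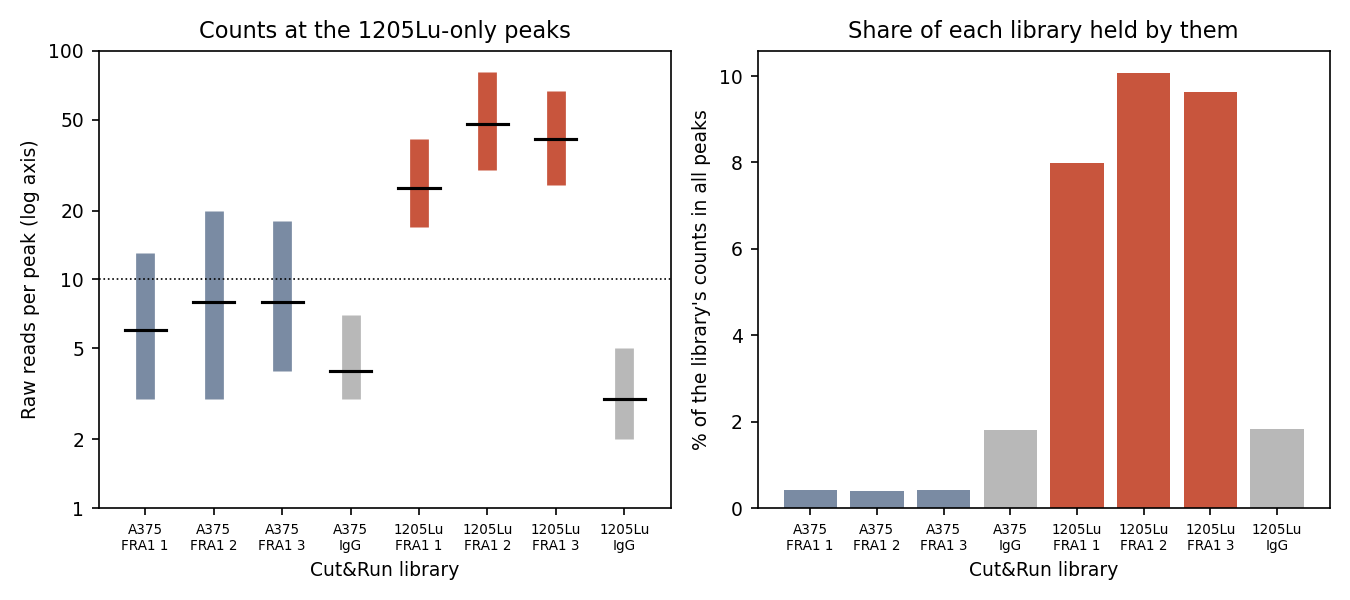
Left, raw reads per member in each of the 8 Cut&Run libraries on a log axis, with bars for the interquartile range, black lines for the median and a dotted line at the 10-read minimum. Right, the percent of each library's counts in all consensus peaks that falls in the members, about 8 to 10% in the 1205Lu FRA1 libraries, under 0.5% in the A375 FRA1 libraries and 1.8% in both IgG libraries.

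The mean 1205Lu FRA1 count was a median of 8.75 times the IgG count plus 1 (range 4.11 to 85.3), and in A375 the same ratio was 1.67. Every 1205Lu FRA1 count lay above every A375 FRA1 count at 1161 members (82.3%). In 93 members the raw mean was lower in 1205Lu than in A375. Scaled to the totals in peaks 1205Lu was higher at every member, by a median of 28.6-fold (1.15 to 1080). These totals are larger in A375 and include the peaks enriched there, so the scaling itself raises 1205Lu over A375. At the member by the SOX9 start, raw counts of 14, 18 and 14 in 1205Lu and 15, 18 and 12 in A375 became 5.83-fold. The scaled folds thus depend on this divisor and on counts used by the rule, and are no separate measure of binding. Failing the rule in A375 took different forms. At 984 members (69.8%) at least 1 A375 FRA1 library held under 10 reads, and at 696 all 3 did. The other 426 (30.2%) had 10 reads or more in every A375 library and missed the IgG limit.

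Many members lay close to a limit of the rule. The lowest 1205Lu library stood at 4 to 4.5 times IgG plus 1 in 294 members, while 252 peaks just outside stood at 3.5 to under 4 times. A lowest count of exactly 10 reads was found in 39 members, and 49 peaks past the IgG limit fell out with a lowest count of 9. In A375, 71 members missed the limit with a lowest ratio of 3.5 to under 4.

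The 1205Lu FRA1 libraries were not equal. Over all consensus peaks replicates 2 and 3 were the closest pair, with a chi-square statistic of 1.06 for each degree of freedom, against 1.90 and 1.62 for the pairs with replicate 1 and 1.09 to 1.25 in A375. This was above sampling noise, and all 3 were kept as separate samples; with replicates 2 and 3 averaged as 1 sample the rule gave 1463 peaks. Replicate 1 was the lowest of the 3 at 1278 members (90.6%), and without replicate 1 the same rule gave 2863 peaks. Thinning the A375 libraries to the 1205Lu totals in peaks gave 3009 peaks. The 1599 that joined were peaks enriched in both lines before thinning, since under the rule no others can join. All 1410 members stayed, which the thinning favoured, because it cut the A375 FRA1 counts more than the A375 IgG counts.

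The member with the highest enrichment over IgG was the chr15:30922558-30923228 peak shown above, within 3 kb of a transcript start. The nearest coding start, 18329 bp away, was that of FAN1, a DNA repair nuclease gene. The counts of this peak were 52, 108 and 96 in 1205Lu FRA1 with 0 in IgG, and 7, 17 and 19 in A375 FRA1 with 7 in IgG. An intronic peak near GAB1, which encodes an adaptor of receptor tyrosine kinases, held 28, 60 and 48 reads with 0 in IgG, against 3, 2 and 5 in A375 with 2 in IgG. With IgG at 0 these ratios rest on few control reads.

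The chr14:101000609-101001835 peak had the most FRA1 reads of the sequences shown, 152, 331 and 292 with 4 in IgG, against 19, 39 and 28 in A375 with 4 in IgG. This peak holds 3 copies of the AP-1 word. The intergenic peak chr9:108022336-108022909 was among the 10 highest both over IgG and over A375, with 54, 108 and 97 reads in 1205Lu (IgG 1) and 2, 1 and 2 in A375 (IgG 3).

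By the ratio of 1205Lu to A375 at equal totals, the 10 highest members included 4 on chromosome Y. Of 17 consensus peaks on chromosome Y, 7 were members, and all 17 had 0 reads in all 4 A375 libraries, IgG included. Over the chromosome Y peaks the 1205Lu IgG library held 33 reads. Whether A375 carries this DNA was not tested, so these members are no measure of binding in A375. The only other member at 0 in all 4 A375 libraries was the intronic peak chr9:22051949-22053044, 42644 bp from the nearest coding start, that of the cell cycle inhibitor gene CDKN2B. It held 91, 142 and 113 reads in 1205Lu FRA1 and 6 in IgG, and the presence of its DNA in A375 was likewise not tested.

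Among the highest by that ratio outside chromosome Y was the transcript-start peak near PFKP (chr10:3107166-3107801), which encodes a phosphofructokinase of glycolysis, with 63, 95 and 82 reads in 1205Lu (IgG 4) and 0, 2 and 3 in A375 (IgG 3). A peak 34910 bp from FZD1, a WNT receptor gene, held 72, 157 and 148 reads (IgG 13) against 2, 6 and 2 (IgG 7). In both of these peaks every 1205Lu FRA1 library was above every A375 library.

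Over chromosomes, members made up 4.59% of the peaks under 2000 bp on chromosome 21, 4.04% on 22 and 3.76% on 16, and 1.59% on 19. The IgG ratio of 1205Lu to A375, scaled to library totals, was 1.07 on chromosome 21, 1.495 on 22, 0.978 on 16 and 0.880 on 19. Over the 23 chromosomes without Y the density of members and that IgG ratio had Pearson's r = 0.50 and Spearman's rho = 0.63. This is a description over chromosomes that share the same libraries, and the part of DNA copy number in membership was not tested.

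The share of members with the AP-1 word lay below that of the other enriched peaks, with intervals that did not overlap. TGACTCA lay within 100 bp of the centre in 275 members, 19.5% (95% Wilson interval 17.5 to 21.7%), against 38.2% (36.3 to 40.3%) of peaks enriched in both lines, 34.7% of peaks enriched in A375 only, 21.5% of peaks in neither class and 29.1% of all peaks under 2000 bp. Windows 2000 bp to either side of the members held it in 3.58%. The intervals, here and below, cover counting error only. Anywhere in the peak the word occurred in 52.3% of members and 80.6% of peaks in both lines, but members were narrower (median width 653 bp, against 1030 bp).

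The AP-1 share moved with the way the library totals in peaks were treated. Among the 984 members with an A375 library under 10 reads it was 17.4%, and among the other 426 it was 24.4%. With every library scaled to the median total before the rule it was 30.9%, with A375 thinned to the 1205Lu totals 29.6%, and at a limit of 8 times IgG plus 1 25.7%. Within 50 bp of the centre it was 9.79%. Over 4 equal groups of the members by FRA1 over IgG the share ran 15.3, 19.0, 22.2 and 21.5% from the lowest to the highest. Members with the AP-1 word had a median FRA1 to IgG ratio of 9.11 and those without it 8.67, and their median A375 FRA1 counts were 9.0 and 6.67.

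The shares of members with the SOX and forkhead words lay above those of the other classes, with intervals that did not overlap. ACAAAG lay within 100 bp of the centre in 370 members, 26.2% (24.0 to 28.6%), against 17.9% (16.4 to 19.5%) of peaks in both lines, 15.2% of peaks in A375 only and 15.9% of all peaks under 2000 bp. The windows beside the members held it in 16.2%. Its longer form AACAAAG, which contains ACAAAG, was found in 10.0% of members and 6.21% of peaks in both lines. TAAACA was found in 24.0% (21.9 to 26.3%) of members, 16.9% (15.4 to 18.5%) of peaks in both lines and 14.8% of all peaks. Either ACAAAG or TAAACA lay in 43.6% of members and 31.6% of peaks in both lines. The end of TAAACA can be the start of ACAAAG, so some windows count for both. These short words were chosen after their shares were seen, and a match is a description and not a bound site.

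**Figure D2:**
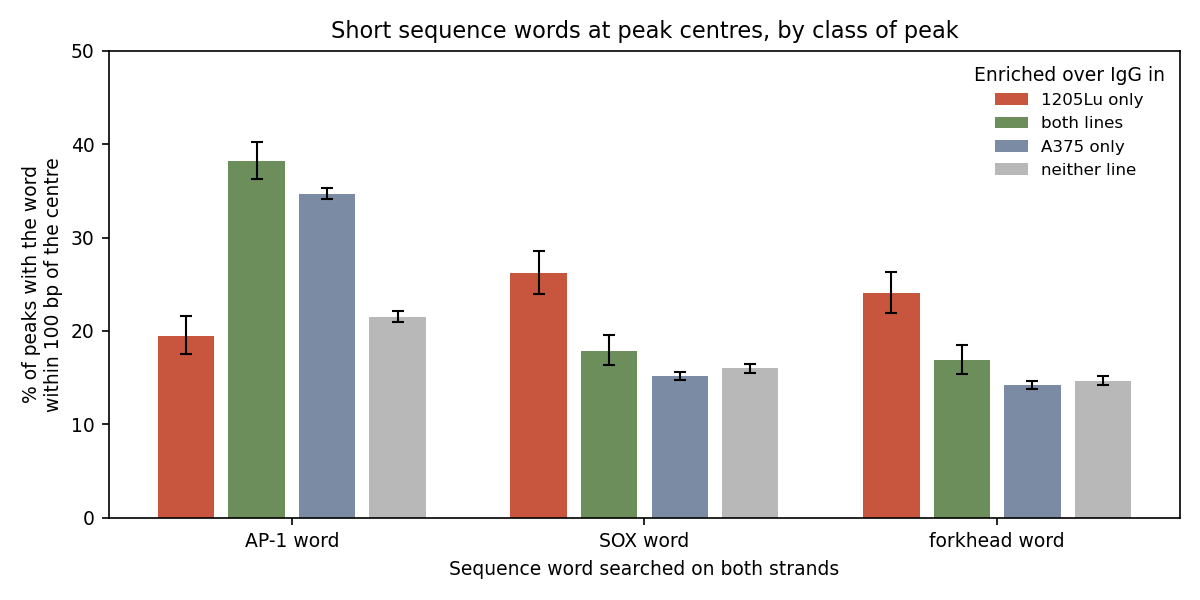
Percent of peaks with the AP-1, SOX (ACAAAG) or forkhead (TAAACA) word within 100 bp of the centre, in the 4 classes of peak; error bars are 95% Wilson intervals. The 1205Lu-only bar is the lowest of the 4 for AP-1 and the highest of the 4 for the SOX and forkhead words.

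The windows of the members had a median GC content of 41.8%, against 44.3% for all peaks under 2000 bp, so the shares were set side by side within bands of GC. ACAAAG was more frequent in the members in each of 5 bands, for instance 28.3% against 20.7% of peaks in both lines under 35% GC, 27.2% against 18.6% at 45 to 50%, and 21.3% against 11.8% at 50% or more. TAAACA was close under 35% GC, 36.4% against 35.8%, and at 40 to 45%, 18.3% against 18.7%, and higher in the members in the other 3 bands. AP-1 was lower in the members in each band, between 17.4 and 21.7%, against 34.9 to 40.2% of peaks in both lines.

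**Figure D3:**
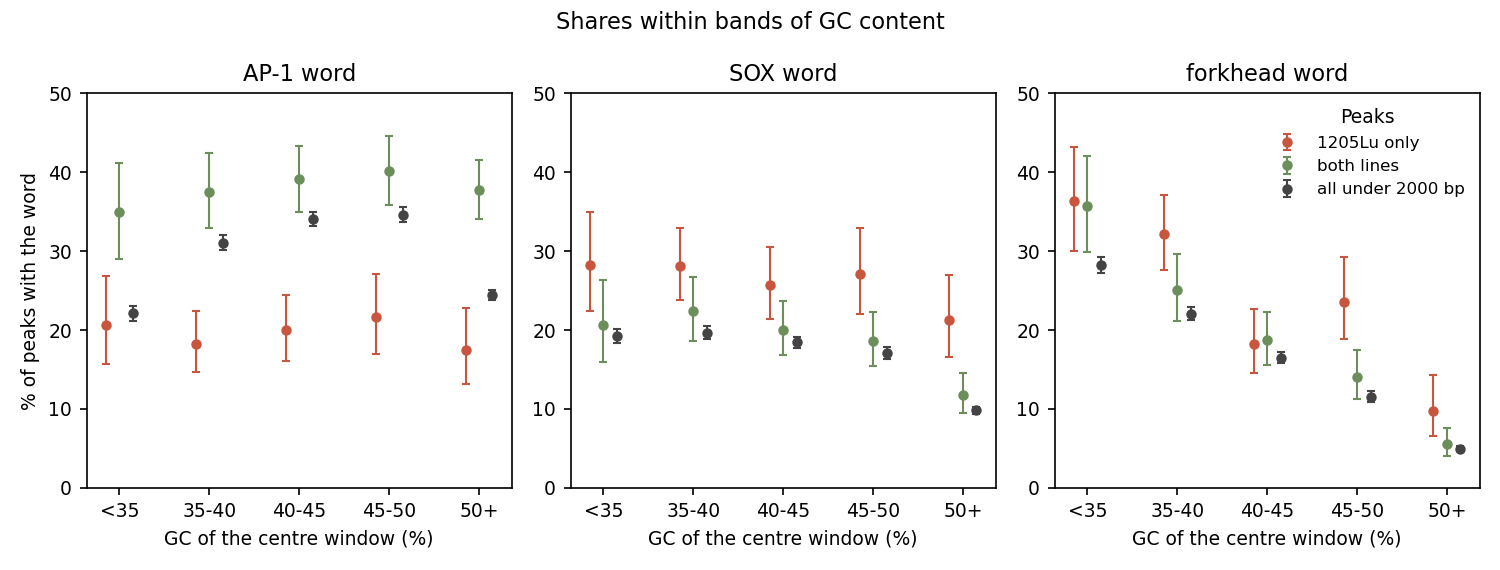
Percent of peaks with each word by GC band of the 201 bp centre window, for the members, the peaks in both lines and all peaks under 2000 bp, with 95% Wilson intervals. AP-1 lies near 20% in the members and above 34% in the peaks of both lines in every band, and the SOX word lies highest in the members in every band.

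The E-box words CACGTG and CATGTG, which MITF and related factors recognise, lay in 16.7% (14.8 to 18.7%) of members, against 15.3% (13.9 to 16.8%) of peaks in both lines, 4185 of 27898 peaks in A375 only (14.6 to 15.4%) and 14.0% (13.6 to 14.5%) of peaks in neither class. The members' interval overlapped those of the other enriched classes and lay above that of the neither class. The cAMP response element (CRE) word was too rare to rank the classes, with 8 members (0.567%, 0.288 to 1.12%) and 0.394 to 0.528% of the other classes. The TEAD word (GGAATGT or GGAATGC) was in 7.30% of members, 7.9% of peaks in both lines and 11.04% of peaks in A375 only. The GC box GGGCGG, a word of promoters, was in 3.05% of members and 11.8% of peaks in neither class. The CTCF core CCACNAG was in 7.09% of members and in 7.70% of the windows beside them.

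Most members lay away from gene starts. A transcript start lay within 3 kb of 334 members, 23.7% (21.5 to 26.0%), against 31.6% of peaks in both lines, 29.1% in A375 only and 36.2% in neither class. Introns held 47.4%, exons 1.77% and intergenic sequence 27.2%. The median distance to a coding start was 38006.5 bp, against 28864 bp for peaks in both lines and 30649 bp for all peaks. The promoter share was 26.8% with scaled libraries and 28.4% with A375 thinned. Most members stood alone: 224 of them formed 106 runs in which neighbours lay within 50 kb, and no run held more than 3.

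Genes with a start near a member were called higher in 1205Lu at more than the background share. The peaks were chosen without the RNA-seq, so this was tested with edgeR's quasi-likelihood test over all genes, with calls at a Benjamini-Hochberg adjusted p below 0.05 where the log2 fold change also exceeded 1 in either direction. A coding start lay within 3 kb of 121 members, which linked 130 genes, of which 110 passed the filter on low counts. In si-NT cells 48 of these (43.6%) were higher in 1205Lu, against 20.2% of all protein-coding genes tested, and 7 (6.36%) were lower, against 18.4%. Their median log2 fold change was 0.77, against -0.02 over all genes. For genes at peaks of both lines 98 of 343 (28.6%) were higher, and at peaks of A375 only 577 of 3606 (16.0%) were higher and 743 lower. These shares were not compared by a test. In these bulk libraries, a lower level in every cell and expression in fewer cells cannot be told apart.

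**Figure D4:**
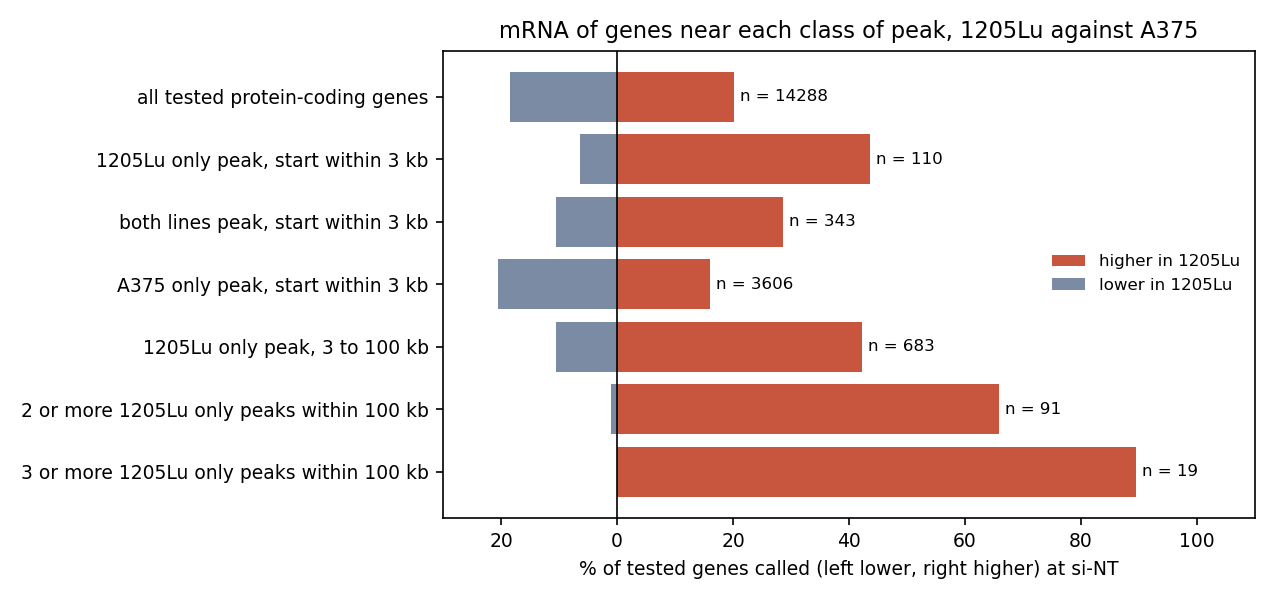
Percent of tested genes called higher (right) or lower (left) in 1205Lu than in A375 at si-NT, for all tested protein-coding genes and for genes linked to each class of peak, with the number tested beside each bar. The share called higher is 20.2% over all genes, 43.6% at members within 3 kb and 89.5% at genes with 3 or more members.

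The share called higher was larger for genes with several members nearby. Of genes that were the nearest coding gene to a member 3 to 100 kb away, 289 of 683 (42.3%) were higher and 72 lower. This set can include genes that also had a closer member, such as TNC. Of genes that were the nearest to 2 or more members within 100 kb, 60 of 91 (65.9%) were higher and 1 lower, with a median log2 fold change of 1.75. Of those with 3 or more, 17 of 19 (89.5%) were higher, with a median of 2.98. The same counts for peaks of both lines were 43.3% with 2 or more and 61.7% with 3 or more, and for peaks of A375 only 24.0 and 25.7%. The difference between these classes was not tested. Within the members, genes at peaks with an A375 library under 10 reads were higher in 35 of 61 (57.4%), and at the others in 13 of 49 (26.5%).

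Outside chromosome 8, 17 genes had 3 or more members, 54 in all, of which 8 held the AP-1 word at the centre, 10 ACAAAG and 11 TAAACA. AFAP1, which encodes an actin filament protein, had 5, with log2 fold change 1.2 ± 0.02 (SE), from 175, 176 and 173 CPM in A375 to 355, 340 and 363 in 1205Lu. FRMD4A, a gene for a scaffold protein of cell polarity, had 4, with 67.7, 65.9 and 60.7 CPM in A375 and 780, 765 and 789 in 1205Lu (log2 3.77 ± 0.03). The groups did not overlap in either gene. The AFAP1 CPM, scaled over all 12 samples, give a smaller fold than the fit, close to the fold limit.

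The FRMD4A peak with most reads, chr10:13715702-13716844 in an intron, held 125, 280 and 216 reads with 7 in IgG, against 17, 38 and 31 in A375 with 4 in IgG, and carried the AP-1 and forkhead words. ACAN, which encodes the cartilage proteoglycan aggrecan, had 3 members and was at 258, 258 and 257 CPM in 1205Lu and 0.325, 0.448 and 0.340 in A375 (log2 9.59 ± 0.07). Its intronic peak chr15:88829819-88830564 held 40, 92 and 69 reads (IgG 5) against 5, 0 and 6 (IgG 6).

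Further genes with 3 members were SORL1, a sorting receptor gene (log2 4.45), FAM78B (5.09), ABTB2 (3.66), the sulfotransferase gene CHST3 (2.98), the focal adhesion gene TNS3 (2.60), CREB3L2 (2.31), the kinase gene MAP4K4 (2.02) and ZBTB38 (1.35), each called higher in 1205Lu. Not every member at these genes held more raw reads in 1205Lu. The peak over the CREB3L2 start held 17, 26 and 23 reads in 1205Lu (IgG 3) and 53, 79 and 69 in A375 (IgG 14). Another CREB3L2 peak, chr7:137953368-137953967, held 15, 25 and 18 (IgG 2) against 20, 32 and 32 (IgG 5). At both, IgG set the class. CTBP2, a corepressor gene, did not pass, with log2 -0.01 ± 0.03, and TRAM2 stayed under the fold limit with 0.88 ± 0.03. ADAMTS18 was not tested, with counts under the filter.

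Of genes with a member within 3 kb, APOD, which encodes a lipid-binding apolipoprotein, had the largest fold change, with 0.789, 0.407 and 0.382 CPM in A375 and 865, 832 and 854 in 1205Lu (log2 10.85 ± 0.06). Its peak at chr3:195586906-195587468, 2966 bp from the start, held 20 reads in each 1205Lu FRA1 library and 2 in IgG, against 1, 1 and 2 in A375 with 2 in IgG, and carried ACAAAG. The opioid receptor gene OPRD1 followed with 6.99 ± 0.11, the cold-sensing channel gene TRPM8 with 6.27 ± 0.18, SKOR2 with 5.94 ± 0.22 and TRAF1, an adaptor of TNF receptor signalling, with 5.90 ± 0.08. In all of these the 3 A375 samples lay below the 3 samples of 1205Lu.

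TNC, the gene of the matrix glycoprotein tenascin-C, had 2 members within 3 kb and another 84731 bp away. It was at 53.0, 57.7 and 56.3 CPM in A375 and 2596, 2569 and 2647 in 1205Lu (log2 5.73 ± 0.02). The peak shown above (chr9:115109214-115109852), with the AP-1 word and ACAAAG in 2 places, held 33, 67 and 45 reads with 4 in IgG, against 7, 17 and 22 in A375 with 4 in IgG. Its second peak held 18, 20 and 25 reads, and the distant one, in an intron, 51, 99 and 77.

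Of genes lower in 1205Lu, DENND2A fell by 4.26 on the log2 scale (SE 0.17), MLLT11 by 3.06 (0.05), PHGDH, the first enzyme of serine synthesis, by 2.74 (0.06), RPA1, a subunit of the single-strand DNA binding complex, by 1.36 (0.04), MINDY1 by 1.1 (0.13) and the splicing regulator gene MBNL1 by 1.08 (0.02). PHGDH was at 106, 116 and 115 CPM in A375 and 15.4, 12.7 and 16.2 in 1205Lu, while the peak near its start held 36, 61 and 44 reads in 1205Lu (IgG 6) and 28, 57 and 47 in A375 (IgG 8). At the RPA1 peak the counts were 30, 53 and 35 against 1, 3 and 2.

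**Figure D5:**
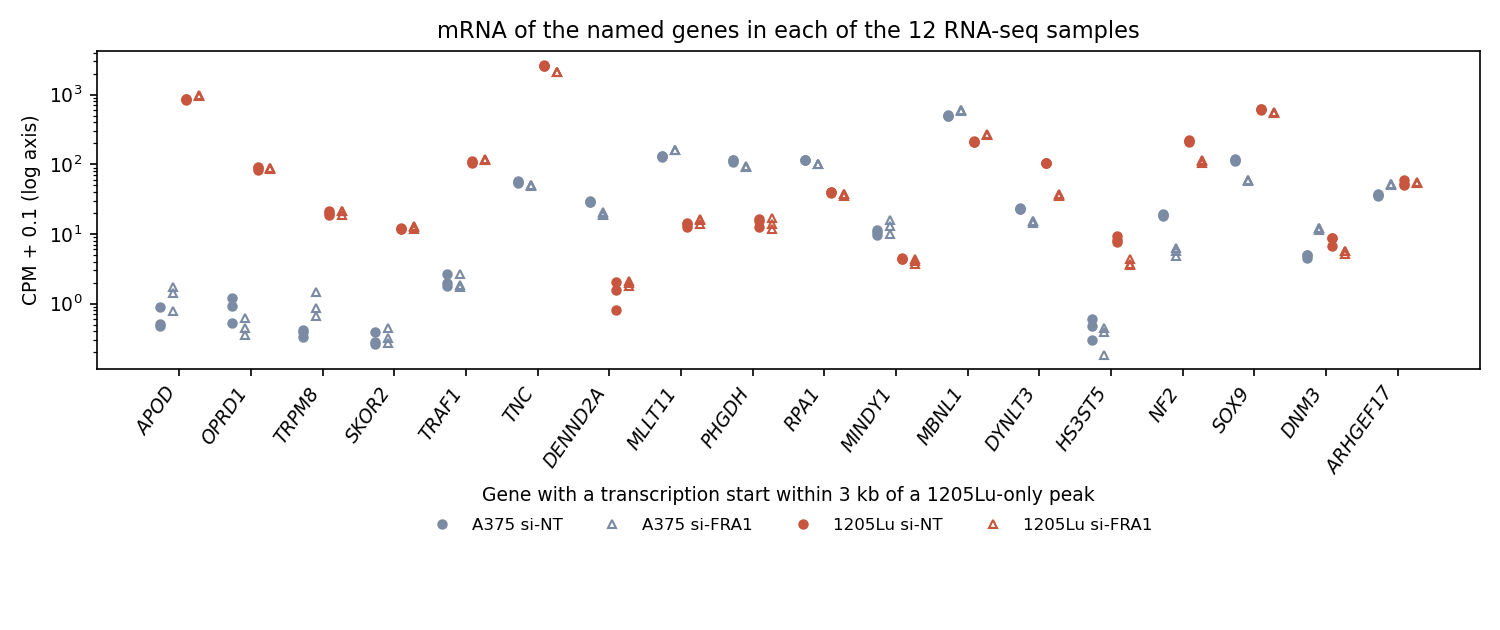
CPM plus 0.1 on a log axis for each named gene with a start within 3 kb of a member, 1 point per RNA-seq sample; circles are si-NT, open triangles si-FRA1, grey-blue A375 and red 1205Lu. The lines stand apart for APOD, OPRD1, TRPM8 and TNC, and si-FRA1 lies below si-NT in both lines for NF2.

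FRA1 silencing changed few of the linked genes by more than the fold limit, and more were called without that limit, as given in the last section. Fold changes are given as si-NT over si-FRA1, so a positive value is a gene lower after silencing, and these fits share the si-NT samples with the comparison of the lines. In 1205Lu 4 of 110 linked genes tested (3.64%) were higher with si-NT, against 1.86% of all genes, and 1 (0.91%) lower, against 1.11%. In A375 3 of 104 were higher (2.88%, against 2.51%) and 3 lower (2.88%, against 2.78%). These shares differ from the background by few genes. Of genes nearest to a member 3 to 100 kb away, 17 of 681 were higher and 9 lower in 1205Lu, and 24 and 23 of 636 in A375. ACAN, with 3 members, was lower after silencing in 1205Lu but stayed under the fold limit, with 258, 258 and 257 CPM in si-NT and 139, 140 and 146 in si-FRA1 (log2 0.92 ± 0.03, edgeR adjusted p = 4.7e-16).

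DYNLT3, which encodes a dynein light chain, had the largest change in 1205Lu, from 104, 106 and 105 CPM in si-NT to 34.7, 37.7 and 35.6 in si-FRA1 (log2 1.601 ± 0.04). In A375 it was 22.4, 23.2 and 22.6 with si-NT and 15.4, 15.5 and 14.5 with si-FRA1, under the fold limit at 0.62 ± 0.07. The peak over its start (chrX:37846783-37847898) held 20, 17 and 16 reads in 1205Lu with 3 in IgG and 9, 35 and 27 in A375 with 2 in IgG. The raw counts there did not separate the lines.

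NF2, the gene of the tumour suppressor merlin, was called higher with si-NT in both lines. It was at 217, 212 and 220 CPM in 1205Lu si-NT and 115, 105 and 112 in si-FRA1 (log2 1.03 ± 0.03), and at 18.5, 19.2 and 18.3 in A375 si-NT and 6.14, 5.56 and 4.67 in si-FRA1 (1.79 ± 0.11). Without 1205Lu si-FRA1 replicate 2 its change in 1205Lu was 0.99, under the fold limit. The peak at its start (chr22:29603077-29603649) held 23, 37 and 32 reads in 1205Lu with 4 in IgG, and 3, 2 and 2 in A375 with 0 in IgG. HS3ST5, a heparan sulfate sulfotransferase gene, was higher with si-NT in 1205Lu (1.2024 ± 0.15, from 9.41, 8.09 and 7.60 CPM to 3.46, 4.22 and 3.67), and its peak held the AP-1 word and ACAAAG.

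SOX9, a lineage factor gene of the neural crest and of cartilage, was at 628, 597 and 627 CPM in 1205Lu si-NT and 560, 553 and 545 in si-FRA1 (log2 0.22 ± 0.02). In A375 it was at 117, 117 and 113 CPM with si-NT and 58.6, 60.0 and 58.1 with si-FRA1, a log2 change of 1.00 ± 0.04 at the fold limit, which fell to between 0.97 and 0.99 in 7 alternative settings. Its member (chr17:72120449-72120892, 128 bp from the start) held 14, 18 and 14 reads in 1205Lu (IgG 2) and 15, 18 and 12 in A375 (IgG 5), so the raw counts were alike and IgG set the class. DNM3, a dynamin gene, went the other way in A375, with 4.83, 4.89 and 4.42 CPM in si-NT and 11.3, 12.1 and 12.001 in si-FRA1 (log2 -1.29 ± 0.12).

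Several lists of genes of melanoma biology held members at more than the share over all genes. Of 14288 genes tested between the lines, 763 (5.34%) were the nearest coding gene to a member within 100 kb, as were 902 of the 19968 coding genes in the RNA-seq table (4.52%). Calls between the lines are read here against 20.2% of all genes higher in 1205Lu and 18.4% lower, and neither kind of share was tested. Of 20 genes of dedifferentiated melanoma, 4 (20%) were the nearest to a member (SOX9, TEAD1, TNC and TWIST2), and over the whole list 11 of 20 were higher in 1205Lu and 5 lower, the latter near the background. Of 24 matrix and adhesion genes 5 (20.8%) had a member (COL4A1, COL6A3, LAMB1, LAMC1 and TIMP3), and of the whole list 9 were higher and 6 lower. The COL6A3 peak held 46, 116 and 100 reads with 3 in IgG against 5, 4 and 4 in A375 with 2 in IgG, while COL6A3, a collagen VI chain gene, was lower in 1205Lu (log2 -1.87 ± 0.15). TIMP3, a metalloprotease inhibitor gene, was higher in 1205Lu (1.93 ± 0.02), and its counts at the peak were 24, 39 and 32 against 17, 32 and 20.

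Of 20 genes of ERK feedback and output, 10 were higher in 1205Lu and 2 lower, and 3 (15%) had a member, of which the ERK pathway inhibitor SPRED2 (1.55 ± 0.03) and the cytokine LIF (3.79 ± 0.04) were higher in 1205Lu and ETV4 stayed within the fold limit at -0.98 ± 0.05. The 20 YAP and TEAD target genes ran lower in 1205Lu, with 4 higher, 9 lower and a median log2 fold change of -0.48, and 4 (20%) had a member. Among these AMOTL1 was higher (1.75 ± 0.02), CCN1 lower (-2.90 ± 0.03), and ARHGEF17, whose peak lay 2610 bp from a start, did not pass (0.75 ± 0.05). Of 14 AP-1 family genes 0 had a member within 100 kb as nearest gene, and so had 0 of AXL, CDK6 and FSCN1, the effectors named by the study. The study drew AXL, CDK6 and FSCN1 from genes with FRA1 promoter peaks shared by A375 and 1205Lu. Peaks enriched in both lines are outside the members by the rule, so the absence of a member there says nothing about FRA1 at these genes. FSCN1 was higher in 1205Lu (2.17 ± 0.02). In the melanocyte list only MITF had a member, 89223 bp away, and MITF was lower in 1205Lu (-3.80 ± 0.08), with 3 of 11 genes tested higher and 3 lower.

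Of 20 cytokine and NF-kB genes only LIF had a member (5%), and of the 18 tested 3 were higher in 1205Lu and 10 lower (median log2 -1.15). Of 16 protease and inhibitor genes 3 (18.8%) had a member (ADAMTS1, MMP2 and TIMP3), with 6 of 14 tested higher and 3 lower. Of 20 actin and cytoskeleton genes 2 (10%) had a member (ACTN4 and TPM1), with 3 of 19 higher and 5 lower. The AP-1 family itself had 3 of 13 genes higher and 2 lower.

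Genes of the factor families that recognise the frequent words were called higher in 1205Lu at more than the 20.2% over all genes. SOX genes were also called lower at more than the 18.4% over all genes, and neither share was tested. Of 13 SOX genes tested 6 were higher in 1205Lu and 4 lower, the latter against 18.4% over all genes. SOX10 was at 868, 845 and 892 CPM against 44.6, 45.6 and 45.2 (log2 4.45 ± 0.02), SOX5 at 177, 182 and 178 against 25.7, 28.8 and 25.4, and SOX9 as given above. Of 35 forkhead genes tested 18 were higher and 7 lower, the latter close to the background. FOXF1, a factor gene of mesenchyme, was at 73.6, 71.7 and 77.3 CPM against 0.650, 1.02 and 2.04 (log2 6.07 ± 0.13), and a member 18330 bp from its start held 165, 307 and 210 reads with 9 in IgG, against 16, 34 and 38 in A375 with 6 in IgG. Members also lay nearest to SOX5, with 30, 60 and 44 reads (IgG 3) against 3, 7 and 6 (IgG 8), and to SOX2, with 18, 24 and 19 (IgG 2) against 3, 2 and 2 (IgG 1). Genes nearest to a member with ACAAAG 3 to 100 kb away were higher in 80 of 196 cases, close to the 42.3% for members with or without the word. Whether any of these factors binds the members was not measured.

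The difference of silencing between the lines was tested as an interaction. It was called for 8 of 110 linked genes (7.27%), against 5.23% of all genes in either direction.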

How the data were processed

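FRA1 and IgG Cut&Run (8 libraries) and RNA-seq (12 libraries) were analysed in 2 human melanoma lines. Per the submitters' processing notes and the methods of the study, reads were trimmed with cutadapt 1.8.1, Cut&Run reads were aligned with Bowtie2 2.4.1 and peaks called with MACS2 2.1.1.20160309 on GRCh38, and RNA reads were aligned with STAR 2.7.7a and quantified with RSEM 1.3.0. How samples entered the peak calling, singly or pooled, is not given in the sources used here. For Cut&Run the authors deposited raw read counts per consensus peak, and for RNA-seq the authors deposited expected counts per gene, which were rounded here to whole numbers.

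Members were selected on the raw Cut&Run counts, so these received no test. The members, gene lists and words were chosen with earlier results of these data known. Peaks were annotated with GENCODE v44 transcript starts, and a promoter was a start within 3 kb. Sequence words were searched on both strands of GRCh38 (Python 3.11.15), after a check on simulated sequences. RNA-seq counts were fitted with edgeR 4.0.16 (R 4.3.3; TMM, filterByExpr, quasi-likelihood test, Benjamini-Hochberg adjustment over all genes tested), after a test on simulated counts, with only the groups compared in each fit and all 12 samples in the interaction. RNA libraries held 20573412 to 32518903 counts, and Cut&Run totals stand with the results. CPM are counts scaled to these totals after TMM adjustment over all 12 samples.

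Peaks named are the 10 highest over IgG, the 10 highest over A375 at equal totals (pseudocount 1 on each mean), none from chromosome 8, and members within 3 kb of a listed gene. Genes named are the 6 largest changes each way among linked genes called with a mean of at least 100 counts and groups that do not overlap, plus listed genes, FOSL1, AXL, CDK6, FSCN1 and MITF. Examples chosen after their values were seen are the genes with 3 or more members, the listed genes with a member within 100 kb, SOX and forkhead genes, and the chromosome 9 peak at 0 in A375. Alternatives were DESeq2 1.42.0, other normalizations and filters, other limits, scaling, thinning and leaving out each sample. Some were added after seeing the data, namely subsets of the members by A375 counts, by chromosome and by other peaks at the start, and the SOX and forkhead words with their GC bands. A peak and gene that met the naming rule are not reported here.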

Additional observations from a re-analysis of the deposited data

Results flagged for a closer look

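The effect of silencing differed between the lines at 8 linked genes in the interaction test (edgeR quasi-likelihood, Benjamini-Hochberg adjusted over all genes, absolute log2 difference over 1). Values are the log2 fold of si-NT over si-FRA1 in 1205Lu minus that in A375, with 3 samples in each of the 4 groups.

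DNM3 had a difference of 1.90 (SE 0.18). In 1205Lu it was at 8.77, 8.55 and 6.66 CPM with si-NT and 5.63, 5.53 and 5.11 with si-FRA1. In A375 the values were 4.83, 4.89 and 4.42 with si-NT and 11.3, 12.1 and 12.001 with si-FRA1. Every si-FRA1 sample lay below every si-NT sample in 1205Lu and above every si-NT sample in A375. SLC12A8 had a difference of 1.84 (SE 0.30), falling from 3.18, 1.79 and 3.19 CPM to 1.298, 1.4799 and 0.837 in 1205Lu and rising from 5.66, 5.38 and 6.92 to 10.1, 8.17 and 9.60 in A375. AFAP1L2 (1.24, SE 0.11) fell from 119, 117 and 117 CPM to 98.3, 93.8 and 92.0 in 1205Lu and rose from 4.55, 5.54 and 4.16 to 10.2, 8.43 and 7.96 in A375. ST3GAL5, a ganglioside synthase gene, had a difference of 1.06 (SE 0.07), from 162, 157 and 165 CPM to 122, 124 and 123 in 1205Lu and from 23.1, 25.1 and 25.4 to 39.4, 40.9 and 35.1 in A375.

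The other 4 rest on few counts in the lower line, where CPM was at most 2.02 in every sample. These were TRPM8 (1.57, SE 0.39), APOD (1.08, SE 0.26) and OPRD1 (-1.03, SE 0.33), which are low in A375, and DENND2A (-1.04, SE 0.27), which is low in 1205Lu.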

How the results depend on the processing

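Directions of the named genes held under the alternatives run, other than ARHGEF17 after silencing in 1205Lu, which was 0.034, became -0.032 without 1205Lu si-NT replicate 3 and ran up to 0.063 with another sample left out. The number of members, 1410, was 2328 at 2 times IgG plus 1, 491 at 8 times and 3009 with A375 thinned, and ran from 1249 to 2863 when 1 FRA1 library was left out, the highest without 1205Lu replicate 1. The AP-1 share of 19.5% was 15.9% at 2 times, 25.7% at 8 times, 30.9% with scaled libraries, 29.6% with A375 thinned, 17.4% in members with an A375 library under 10 counts, 9.79% within 50 bp of the centre and 52.3% anywhere in the peak, and 18.6 to 19.5% with 1 library left out. The promoter share of 23.7% was 26.8% with scaled libraries, 28.4% thinned and 12.1% for starts within 1 kb, and 22.8 to 24.0% with 1 library left out. The cause of these moves was not tested beyond the construction of each alternative.

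Without a fold limit, 75 of the 110 linked genes tested were called higher in 1205Lu and 22 lower. For silencing, 44 were higher and 27 lower with si-NT of 110 in 1205Lu, and 30 and 38 of 104 in A375. The share over all genes without a fold limit was not computed, so these counts have no background beside them. With the fold limit and starts within 1 kb the counts were 21 and 3, 2 and 0, and 3 and 0. Genes lower in 1205Lu numbered 2 at members with an A375 library under 10 counts and 3 with no other enriched peak at the start, where genes lower with si-NT in 1205Lu numbered 0 and genes of the interaction 5. With at least 10 counts in every sample 1 gene was lower with si-NT in A375. With 1 sample left out the counts ran 48 to 49 and 7 to 9 between lines, 3 to 4 and 1 to 2 for silencing in 1205Lu, 2 to 4 and 1 to 3 in A375, and 6 to 9 for the interaction. A fit with the replicate number as a block gave 48 genes higher in 1205Lu, 3 higher with si-NT in A375 and 8 in the interaction, and changed no call of a named gene. Same-numbered samples did not deviate together (correlations -0.04 to 0.02), so the numbers name samples and do not pair them. The single IgG library in each line limits every enrichment to counts of a few reads.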
